A study of Mus musculus with 12 samples.

Results

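The fibrillar collagens considered here are Col1a1, Col1a2, Col3a1, Col5a1, Col5a2, Col5a3, Col11a1, Col11a2, Col24a1 and Col27a1. These 10 genes are among 20144 that could be matched to probes. They were chosen by name, as genes for chains of types I, III, V, XI, XXIV and XXVII, and type II is not among them. Each was measured by 1 probe. Expression was measured in 2 mouse osteosarcoma cell lines, Dunn cells with low metastatic potential and LM8 cells, a derivative of Dunn selected in vivo for metastatic activity. Both lines were grown untreated in the same medium, and early cells (passage 25 in Dunn, passage 24 in LM8) were compared with late cells (passage 86 in Dunn, passage 91 in LM8). Each of the 4 groups had 3 samples on single-colour Agilent arrays, 12 arrays in all. As LM8 derives from Dunn, both lines stand for the same tumour model, and late cells were grown on from the early ones. As nothing in the labels says that the 3 samples of a group were separate cultures, p-values measure the spread between these samples, which may be technical.

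Fibrillar collagens are made as procollagen chains that wind into triple helices in the endoplasmic reticulum, lose their end propeptides outside the cell and assemble into banded fibrils. Type I collagen, built from the Col1a1 and Col1a2 chains, is the main protein of bone matrix and a product of osteoblasts. Type V and type III chains join type I fibrils, and type V is needed to start them. Type XI chains are best known from cartilage. Types XXIV and XXVII are shorter and less abundant, with type XXIV described in developing bone and type XXVII in cartilage.

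Levels are log2 signals after the array's own 75th percentile was subtracted, so that 0 stands for that percentile. A gene was called when its adjusted p was under 0.05, by limma with Benjamini-Hochberg adjustment over all probes. A probe was well above background when the scanner software said so. This held for 39.1% to 59.7% of probes per array, lowest on early Dunn replicate 1, whose median background signal was 87 against 22.5 to 34 elsewhere. Late Dunn replicate 1 stood apart, with correlations of 0.919 and 0.923 to the other late Dunn arrays, which correlated at 0.986 with each other. Arrays with the same replicate number lay on the same slide, 3 slides in all with 1 array of each group. The median of all genes was lower in LM8 than in Dunn by 0.66 on the log2 scale with this scaling, and higher by 0.50 without scaling, so differences between the lines are relative to the array's scale.

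The labels call the cells osteoblastic. Of 8 matched osteoblast markers, Runx2, Sp7, Ibsp and Bglap2 were well above background on every array, and all 8 were so on every LM8 array. None of 5 epithelial markers was well above background on all arrays of any group. Of 6 matched macrophage markers 2 or 3, of 5 endothelial markers 2 or 3 and of 4 muscle markers 1 or 2 were so on all arrays of a group. Csf1r and Itgam of the macrophage list, Kdr and Vwf of the endothelial list and Acta1 of the muscle list were well above background on every array. Macrophage markers Adgre1 and Ptprc were well above background on no Dunn array but on some arrays of each LM8 group. Myod1 and Myog were not well above background in any group. The macrophage list's summed level, in multiples of the array's 75th percentile, ran from 4.78 to 7.01 on LM8 arrays and from 5.49 to 13.9 on Dunn arrays, and that of the endothelial list from 3.47 to 4.22 and from 3.94 to 12.8. For muscle these ranges were 0.126 to 0.234 and 0.319 to 1.47, for epithelium 0.0111 to 0.0481 and 0.0246 to 0.560, and for osteoblasts 48.3 to 75.9 and 70.3 to 143. The part of other cell types in the results was not tested.

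Detection separated the 10 genes. Col1a1, Col5a1, Col11a2 and Col27a1 were well above background on all 12 arrays, and Col5a2 on 11 of 12, all but early Dunn replicate 1. Col1a2 was well above background on the 8 arrays that measured it, while its spot was marked as an outlier on the other 4. Col24a1 and Col5a3 were well above background on all 6 LM8 arrays, Col24a1 on 0 of 6 Dunn arrays and Col5a3 on 1 of 6, late Dunn replicate 1. Col3a1 was well above background on 1 array, early LM8 replicate 2, and Col11a1 on none. No spot was saturated.

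**Figure D1:**
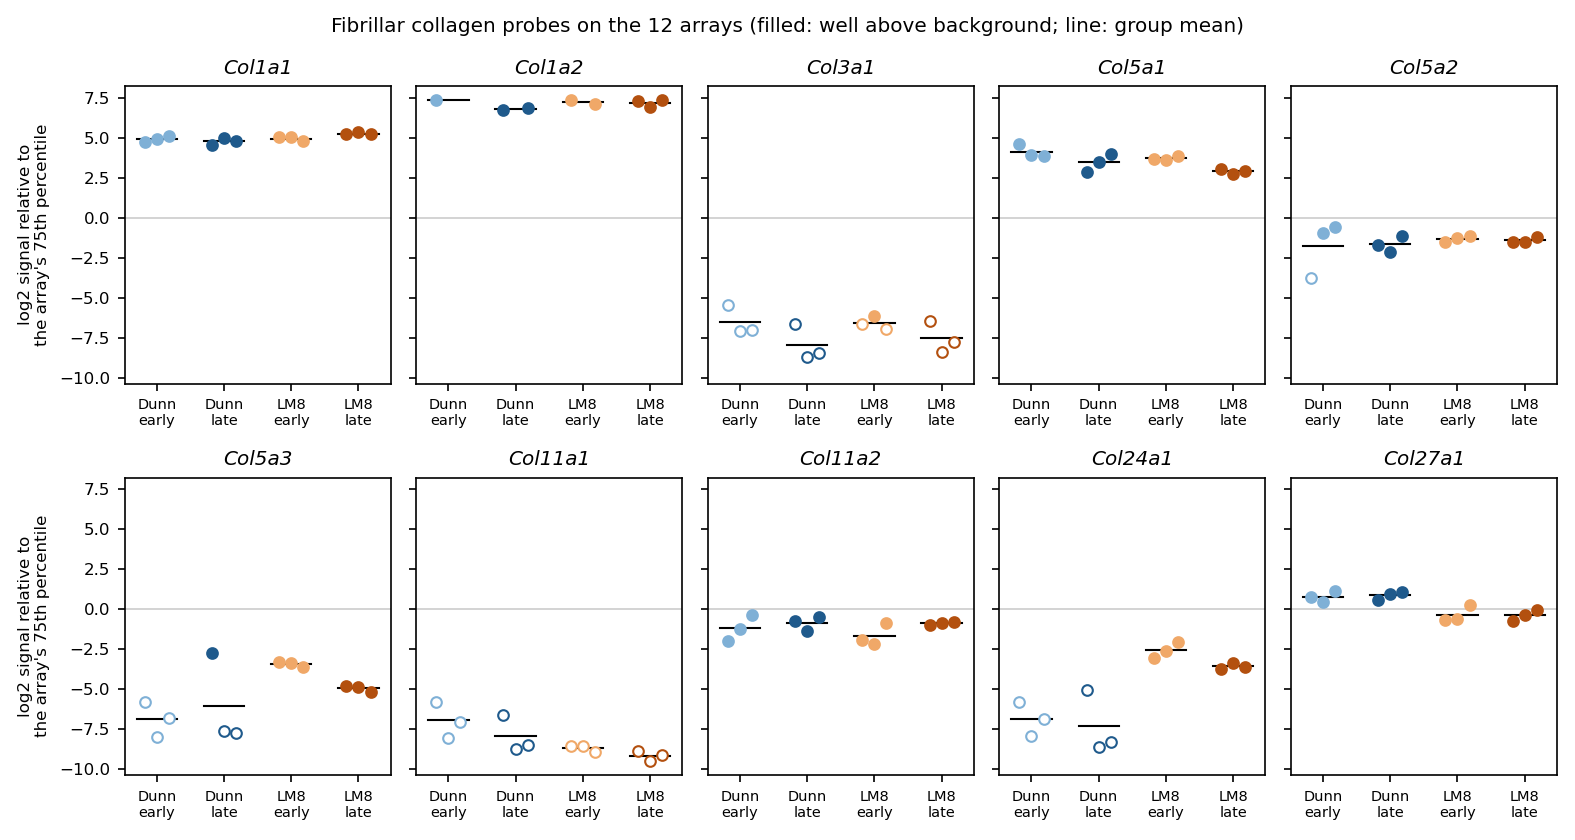
Log2 signal of each gene relative to the array's 75th percentile (y axis) in early and late Dunn and LM8 cells (x axis). Each point is 1 array (filled when well above background), lines are group means, and arrays whose Col1a2 spot was marked as an outlier are left out. Col24a1 is filled on the 6 LM8 arrays only, and Col5a3 on these and on late Dunn replicate 1.

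Early LM8 cells differed from early Dunn cells in Col24a1 and Col5a3, both higher in LM8. These 2 of 10 genes were called, against 4.55% of all genes and 1.33% called in this direction. By the methods' rule of more than 2-fold at an unadjusted p under 0.05, 4 of 10 passed, Col24a1, Col5a3, Col27a1 and Col11a1, against 36.7% of all genes. The arrays of the 2 lines did not overlap for 5 of 10 genes, while 54.9% of all genes showed no overlap. The median difference of the 10 genes was -0.09, beside -0.76 for all genes.

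In late cells none of the 10 genes was called by limma, against 3.83% of all genes. Col24a1 and Col27a1 passed the methods' rule, which 13.3% of all genes met. These were the only 2 of the 10 with an unadjusted p under 0.05, which 4471 of 20143 genes had. At late passage the methods' t-test called 0 of 10 after adjustment. With late Dunn replicate 1 left out, 3 of 10 were called, Col24a1, Col5a3 and Col27a1, against 9.70% of all genes in the same fit. With early and late arrays pooled, 4 of 10 were called, against 43.6% of all genes. Of these Col24a1 and Col5a3 were higher in LM8, as were 5.71% of all genes, and Col27a1 and Col11a1 lower, as were 37.9%. All 4 also passed the methods' rule, and so did 37.9% of all genes.

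Passage was compared within each line. In LM8 cells 1 of 10 genes was called, Col5a3, lower in late cells, against 2.82% of all genes and 1.82% called lower. The methods' rule gave the same gene, and 7.29% of all genes. Col5a1 and Col24a1 were the other 2 with an unadjusted p under 0.05, which 3207 of 20144 genes had. In Dunn cells limma called 0 of 10, against 0.00497% of all genes. None of the 10 had an unadjusted p under 0.05, which 1368 of 20123 genes had. None passed the methods' rule, which 4.86% of genes passed. The passage change in LM8 minus that in Dunn, fitted over all 12 arrays, gave 0 of 10 calls, against 0.606% of genes. None of the 10 had an unadjusted p under 0.05 there, while 1381 of 20130 genes did. The methods' t-test called 0 of 10 in both of these last comparisons.

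**Figure D2:**
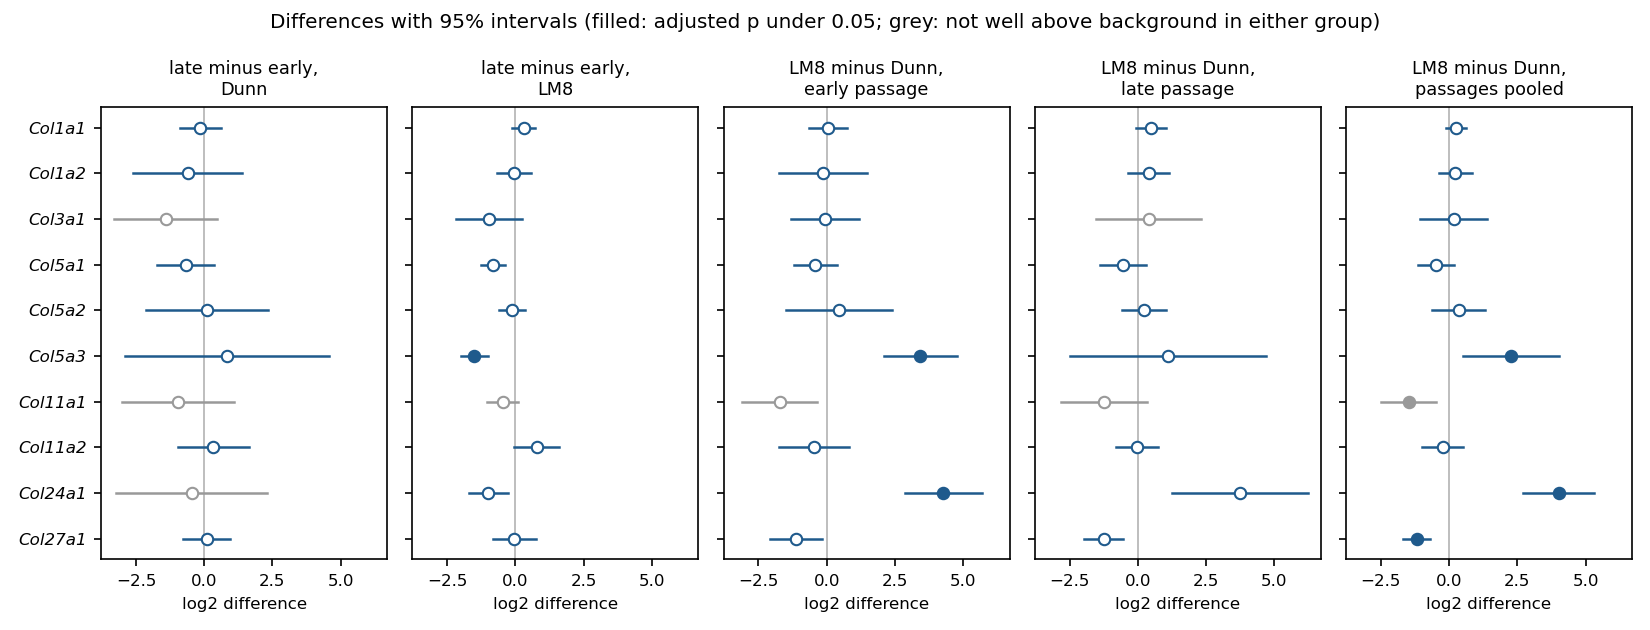
Log2 differences of the 10 genes (x axes) in 5 comparisons, with 95% intervals from limma. Filled points are called and grey ones were not well above background on any array of either group. Col24a1 lies far to the right in all 3 comparisons of LM8 with Dunn, Col27a1 to the left, and Col5a3 has its widest intervals where late Dunn cells enter.

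The start regions of the genes that differed between the lines are given first, for Col24a1 and Col5a3, which were higher in LM8, and for Col27a1, which was lower. RefSeq's promoter table (GRCm38.p6) held 8 of the 10 genes, and the 250 bases before the start were searched on both strands for the CCAAT box, the GC box GGGCGG and the TATA box TATAAA, shown in capitals. The Col24a1 region is chr3:145292222-145292471 on the plus strand, that of Col5a3 is chr9:20815068-20815317 on the minus strand and that of Col27a1 is chr4:63215162-63215411 on the plus strand.
Col24a1: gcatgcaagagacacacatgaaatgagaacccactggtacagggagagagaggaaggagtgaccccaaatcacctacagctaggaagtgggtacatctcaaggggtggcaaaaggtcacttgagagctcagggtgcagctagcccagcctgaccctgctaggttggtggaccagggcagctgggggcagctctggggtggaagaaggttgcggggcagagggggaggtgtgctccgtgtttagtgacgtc
Col5a3: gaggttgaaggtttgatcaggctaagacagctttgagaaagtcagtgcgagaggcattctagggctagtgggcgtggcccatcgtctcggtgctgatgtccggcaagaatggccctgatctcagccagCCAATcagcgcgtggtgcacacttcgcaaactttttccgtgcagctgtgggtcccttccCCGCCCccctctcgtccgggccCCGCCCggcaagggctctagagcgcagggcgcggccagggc
Col27a1: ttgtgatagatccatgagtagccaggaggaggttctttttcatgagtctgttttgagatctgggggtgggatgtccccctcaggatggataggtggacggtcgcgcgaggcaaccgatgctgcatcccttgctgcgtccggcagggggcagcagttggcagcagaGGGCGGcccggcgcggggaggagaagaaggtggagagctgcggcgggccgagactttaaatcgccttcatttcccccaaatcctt
Col24a1 held none of the 3 motifs, Col5a3 held 1 CCAAT and 2 GGGCGG, and Col27a1 held 1 GGGCGG. Of 32851 promoters in the table, 33.8% held CCAAT, 32.7% GGGCGG and 12.4% TATAAA. Col24a1 had 3 CG pairs, Col5a3 17 and Col27a1 15, where the median promoter had 6. A match is a string of letters and was not tested as a binding site.

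Col24a1, the chain of type XXIV collagen, showed the clearest difference between the lines. Its processed signal was 106.9, 216 and 298 on the early LM8 arrays and 90.3, 184 and 112 on the late ones. On the Dunn arrays it was 7.11, 2.52 and 2.49 in early cells and 23.2, 2.52 and 2.18 in late cells. All 6 LM8 signals lay above all 6 Dunn signals, none of which was well above background. This held after scaling too, where 16.1% of all genes showed no overlap between the lines. Before scaling, the array's 75th percentile ran from 893 to 1903 in LM8 and from 287 to 961 in Dunn.

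On the log2 scale relative to the 75th percentile, Col24a1 averaged -2.56 ± 0.52 in early LM8 cells and -3.56 ± 0.17 in late LM8 cells (SD, n = 3 each). Early Dunn cells averaged -6.84 ± 1.07 and late Dunn cells -7.30 ± 1.97 (SD, n = 3 each). As Dunn cells gave only a bound, Col24a1 was at least 4.40-fold higher in LM8 at early passage. The bound was at least 4.30-fold at late passage and at least 4.35-fold with passages pooled. For such a bound the dim arrays entered at the lowest signal that any of their probes had well above background, or at the gene's signal where that was higher. It compares group means and carries no interval, and single arrays can lie closer. On slide 1 the early LM8 level was -3.06, where the Dunn array's lowest level well above background was -3.58. At late passage these were -3.69 and -4.38.

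The measured differences of Col24a1, from Dunn arrays at background, were 4.28 ± 0.60 (SE, adjusted p = 0.0156) at early passage, 3.74 ± 0.99 (adjusted p = 0.135) at late passage and 4.01 ± 0.60 (adjusted p = 0.00104) pooled. Within the slides they were 2.70, 5.30 and 4.83 at early passage and 1.34, 5.21 and 4.68 at late passage, higher in LM8 on each slide. With the dim arrays at the floor the adjusted p at early passage was 0.0304, and with the replicate number as a block it was 0.0640. The early call was also lost without any 1 of the LM8 arrays or without Dunn replicate 3 (adjusted p from 0.0675 to 0.0965). At late passage, without Dunn replicate 1, Col24a1 was at least 6.70-fold higher in LM8, with an adjusted p of 0.000160 for the measured difference of 4.88 ± 0.24 (SE) from arrays at background. Under normexp background correction with an offset, the early difference shrank to 0.19 (adjusted p = 0.812) and the pooled one to 0.39 (adjusted p = 0.448).

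In LM8 cells Col24a1 was lower at late passage, with a difference of -0.996 ± 0.296 (SE) and a 95% interval from -1.70 to -0.29. The late arrays all lay below the early ones, and 24.7% of all genes showed no overlap between these groups. The adjusted p was 0.209. The late minus early values were -0.63, -0.76 and -1.60 on the 3 slides.

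**Figure D3:**
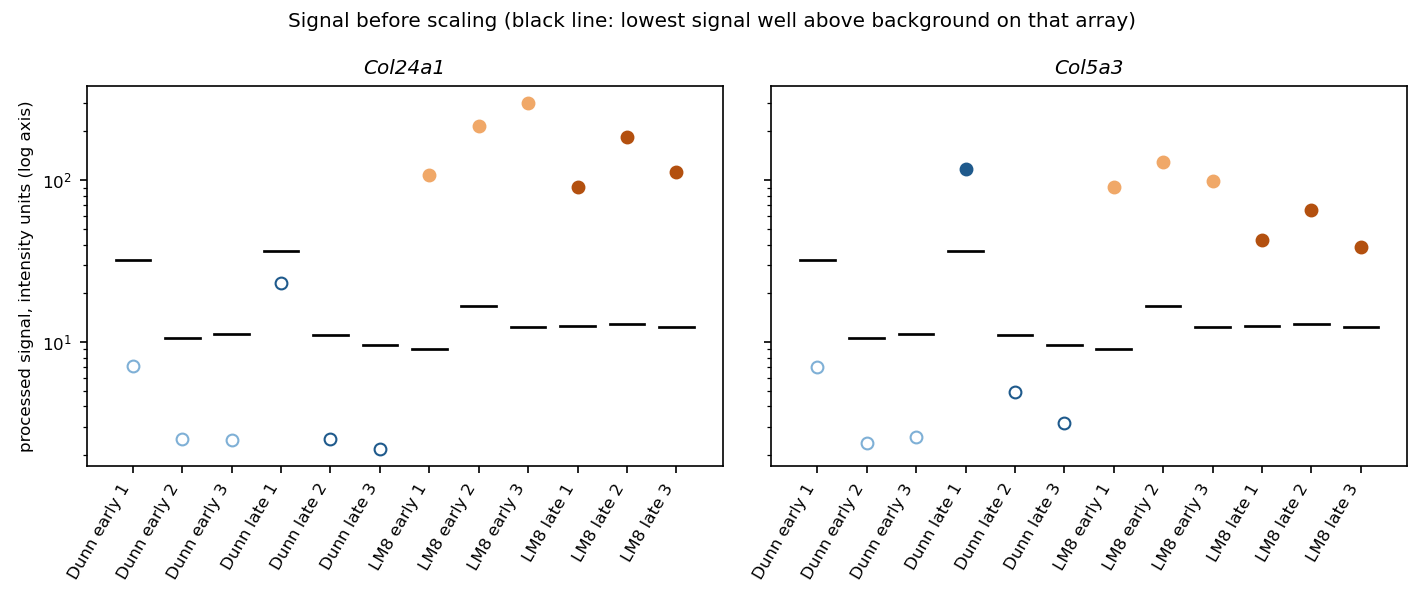
Processed signal of Col24a1 and Col5a3 before scaling (log axis) on each of the 12 arrays, filled when well above background. Black lines mark the lowest signal well above background on that array. Late Dunn replicate 1 gave 117 for Col5a3, above its line, and 23.2 for Col24a1, below its line. The other 5 Dunn arrays lay below their lines for both genes.

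Col5a3, the third chain of type V collagen, was the only gene of the 10 to be called between passages. Its levels were -3.30, -3.35 and -3.62 in early LM8 cells and -4.77, -4.87 and -5.14 in late LM8 cells. The difference was -1.503 ± 0.201 (SE) on the log2 scale, 2.83-fold, with an adjusted p of 0.0144. On the 3 slides it was -1.47, -1.52 and -1.52, and with the slide as replicate block the adjusted p was 0.0453. The call was lost without early replicate 1 or 2 or late replicate 2 or 3 (adjusted p from 0.0554 to 0.0812), and the fall itself stayed between -1.60 and -1.40 without any 1 array. It was also lost with all 12 arrays in 1 fit (adjusted p = 0.950), where the Dunn arrays enter the spread.

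Across the lines Col5a3 rested on which arrays of Dunn cells were used. Early Dunn cells gave -5.78, -7.98 and -6.79, none well above background, and late Dunn cells gave -2.69, -7.62 and -7.75. The late Dunn value of -2.69, on replicate 1, exceeded every LM8 array, and the other 5 Dunn arrays lay below every LM8 array. At early passage Col5a3 was at least 2.42-fold higher in LM8, by the same kind of bound as for Col24a1. The adjusted p of 0.0273 belongs to the measured difference of 3.43 ± 0.57 (SE), and with the dim arrays at the floor it was 0.0911, so that the call was lost.

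With the replicate block the adjusted p of this early difference of Col5a3 was 0.0718, without any 1 of the LM8 arrays or Dunn replicate 3 it was 0.121 to 0.133, and normexp turned the difference to -0.46. At late passage the measured difference was 1.10 ± 1.44 (SE, adjusted p = 0.586), and without Dunn replicate 1 it was 2.76 ± 0.23 (SE, adjusted p = 0.00129). The other late Dunn arrays were at background, so that this stands for a bound of at least 2.60-fold. On the slides it was -2.08, 2.76 and 2.62. The pooled difference of 2.26 ± 0.81 (SE, adjusted p = 0.0417) was 3.01 ± 0.49 without Dunn late replicate 1 (adjusted p = 0.00228), where all Dunn arrays were at background and the bound was at least 2.24-fold. The pooled difference of all arrays was 0.73 with a floor on dim signals (adjusted p = 0.328) and -0.55 with normexp (adjusted p = 0.304), where its direction turned. Leaving out any 1 of the other 11 arrays gave 1.96 to 2.46, with adjusted p from 0.0586 to 0.0778.

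Col27a1, the chain of type XXVII collagen, was lower in LM8 than in Dunn. It ran from 0.43 to 1.17 on the Dunn arrays, with a median of 0.86, and from -0.72 to 0.31 on the LM8 arrays, with a median of -0.49. The 2 lines did not overlap, as for 16.1% of all genes with passages pooled. The pooled difference was -1.18 ± 0.23 (SE), 2.27-fold, with an adjusted p of 0.00539. On the slides it was -1.45, -1.04 and -0.86 at early passage and -1.31, -1.30 and -1.14 at late passage. Neither passage alone was called, with -1.12 ± 0.40 (SE, adjusted p = 0.0825) at early passage and -1.25 ± 0.29 (SE, adjusted p = 0.101) at late passage.

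This difference of Col27a1 depended on the scaling. It was -0.82 with the median of each array subtracted (adjusted p = 0.168) and -0.02 without scaling (adjusted p = 0.976), where the early difference turned to 0.35. The median of all genes moved with it, from -0.66 in the main setting to 0.50 without scaling. Between passages it differed by 0.09 in Dunn (95% interval from -0.77 to 0.95) and by -0.04 in LM8 (95% interval from -0.84 to 0.75). Among 7 chondrocyte markers the number well above background on all arrays was 0 in early Dunn, 3 in late Dunn, 3 in early LM8 and 6 in late LM8 cells. Their summed level, in multiples of the array's 75th percentile, was 0.424 to 0.601, 1.83 to 4.76, 0.141 to 0.200 and 0.212 to 0.291 in the same order. Matn1 was not well above background in any group, and the part of these genes in the Col27a1 result was not tested.

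The type I chains were far above the 75th percentile in every group. Col1a1 was 4.74, 4.94 and 5.10 in early Dunn, 4.56, 4.98 and 4.80 in late Dunn, 5.03, 5.04 and 4.82 in early LM8 and 5.22, 5.34 and 5.23 in late LM8 cells. The late LM8 arrays were the highest and did not overlap with those of the other groups. Of all genes, 24.7% showed no overlap between late and early LM8 cells and 52.7% none between late LM8 and late Dunn cells. No comparison of Col1a1 passed the test. Late LM8 cells exceeded early ones by 0.30 (95% interval from -0.12 to 0.72, adjusted p = 0.339) and late Dunn cells by 0.48 (95% interval from -0.07 to 1.03, adjusted p = 0.279).

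In early Dunn cells Col1a2 was measured only on replicate 1, the array of highest background, at 7.39. It gave 6.72 and 6.87 in late Dunn, 7.40 and 7.11 in early LM8 and 7.29, 6.92 and 7.37 in late LM8 cells. With outlier spots kept, early Dunn arrays gave 7.33, 6.51 and 7.16 and late Dunn arrays 6.71, 6.56 and 6.77. The lines differed by 0.22 ± 0.27 with passages pooled (SE, adjusted p = 0.497, n = 5 and 3). In comparisons with early Dunn cells the lone array was assumed to vary like the others. Late minus early was -0.60 in Dunn (95% interval from -2.59 to 1.40) and -0.06 in LM8 (95% interval from -0.68 to 0.56). The change of Col1a1 minus that of Col1a2 within an array was 0.54 in Dunn and 0.40 in LM8 between passages and 0.21 between the lines. Over 9 such shifts between 2 chains, exact permutation tests (two-sided) gave adjusted p-values of 0.45 or more. With 3 against 3 arrays the smallest p they allow is 0.1, with 2 against 1 it is 0.333.

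Among the other type V chains, Col5a1 was high and Col5a2 moderate relative to the 75th percentile. Col5a1, the chain present in most type V molecules, was 3.68, 3.64 and 3.85 in early LM8 cells and 3.06, 2.77 and 2.92 in late LM8 cells. The late arrays lay below the early ones on each slide, by -0.62, -0.87 and -0.93. The difference of -0.81 ± 0.18 (SE) was 1.75-fold, with a 95% interval from -1.25 to -0.37, and its adjusted p was 0.107. It passed with quantile normalization (adjusted p = 0.0391) and when only probes well above background were tested (adjusted p = 0.0281).

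In Dunn cells Col5a1 was 4.62, 3.92 and 3.90 at early and 2.90, 3.52 and 3.98 at late passage. These groups overlapped, and the difference was -0.68 ± 0.42 (SE, adjusted p = 0.782). The difference between LM8 and Dunn was -0.42 at early passage (adjusted p = 0.346) and -0.55 at late passage (adjusted p = 0.300).

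Col5a2, the second type V chain, was -3.73, -0.94 and -0.59 in early Dunn cells, where the first value was not well above background, and -1.71, -2.10 and -1.12 in late Dunn cells. In LM8 cells it was -1.52, -1.22 and -1.12 at early and -1.48, -1.53 and -1.22 at late passage. All comparisons overlapped, and the LM8 passage difference was -0.12 (95% interval from -0.60 to 0.37). Col5a2 minus Col5a1 moved by 0.69 from early to late LM8 cells, with no overlap between the groups (exact permutation p = 0.1, the smallest possible, adjusted p = 0.45). This shift was 0.79 in Dunn (exact p = 0.9) and 0.83 between the lines (exact p = 0.171). Without early Dunn replicate 1 these became -0.44 and 0.27.

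Col11a2, a chain of type XI collagen, was well above background on every array. It was -1.93, -2.13 and -0.87 in early LM8 cells and -0.998, -0.86 and -0.76 in late LM8 cells, with replicate 3 of the early cells as high as the late ones. The difference of 0.77 ± 0.35 (SE) had an adjusted p of 0.297. In Dunn cells it ran from -1.98 to -0.36 at early and from -1.38 to -0.45 at late passage, and no comparison was called.

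Col11a1, its partner chain, was not well above background on any array, so that no fold is given. Its signal was 2.22 to 7.09 in early Dunn, 1.97 to 7.99 in late Dunn, 2.38 to 3.49 in early LM8 and 2.52 to 2.62 in late LM8 cells. The pooled call (adjusted p = 0.0305) therefore compares values at background. The call of Col11a1 was lost without scaling (adjusted p = 0.574), with quantile normalization (adjusted p = 0.786), with the median subtracted (adjusted p = 0.0508) and with outlier spots kept (adjusted p = 0.0571).

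Col3a1, the chain of type III collagen that often accompanies type I in soft connective tissue, was near background too. Its signal was 8.89, 4.53 and 2.23 in early Dunn, 7.78, 2.30 and 1.96 in late Dunn, 9.12, 18.7 and 10.0 in early LM8 and 13.5, 5.80 and 6.20 in late LM8 cells. Only the 18.7 on early LM8 replicate 2 was well above background. No comparison of Col3a1 was called. Its shifts against Col1a1 read background and are given only as a range over left-out arrays between the lines.

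Other genes of the matrix were counted in LM8 passaging, from lists chosen with results known. Of 32 other collagen genes 1 was called higher and 7 lower in late LM8 cells, with a median of -0.49 beside -0.18 for all genes, of which 2.82% were called and 1.82% called lower. Col4a2, a basement membrane chain, was at least 8.44-fold lower, as it was not well above background in late cells. Col8a2, a short-chain collagen of networks, fell by 2.89 ± 0.23 (SE) and Col23a1, a transmembrane collagen, by 2.35 ± 0.24 on the log2 scale. Col10a1, of hypertrophic cartilage and also on the chondrocyte list, was at least 3.45-fold higher, since it was not well above background in early cells. Its adjusted p of 0.00704 belongs to the measured difference of 2.31 ± 0.26 (SE). The adjusted p-values of the 3 named genes that fell were 0.000549, 0.00192 and 0.00480. That of Col4a2, the first, belongs to its measured difference of -4.80 ± 0.26 (SE).

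Of 42 genes for procollagen processing and fibril assembly, which hold the prolyl and lysyl hydroxylases, the chaperones, the propeptide proteinases and the lysyl oxidases, 0 were called higher and 2 lower, beside the same 1.82% of all genes called lower. Fmod, the fibril-binding proteoglycan fibromodulin, fell by 3.06 ± 0.19 (SE, adjusted p = 0.000929) and Lox, the crosslinking enzyme lysyl oxidase, fell by 1.59 ± 0.17 (SE, adjusted p = 0.00638). The list's median was -0.25. In Dunn passaging none of either list was called by limma. An unadjusted limma p under 0.05 was reached by 6 of the 32 and 4 of the 42, and by 1368 of all 20123 genes. By the methods' rule 3 of the 32 were higher and 2 lower, and 1 and 3 of the 42, against 4.86% of all genes. The study reported Col4a2 as down-regulated with passage in Dunn cells as well as in LM8. Between the lines with passages pooled, 3 of the 32 were called higher and 15 lower in LM8 (median -1.36), and also 3 and 15 of the 42 (median -0.49). Over all genes 5.71% were called higher and 37.9% lower, with a median of -0.66.

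Over the 12 arrays, Hspa4l (r = 0.942), Notum (r = 0.916) and Zfp408 (r = 0.897) had the patterns most like that of Col1a1, and Gadd45g (r = 0.894), Armc5 (r = 0.884) and Pcdhb18 (r = 0.881) those most like Col5a1. These are the highest Pearson correlations among 8202 genes well above background on all arrays, which share the 4 groups, the slides and the scaling. For Col3a1, at background, no such genes are given.

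**Figure D4:**
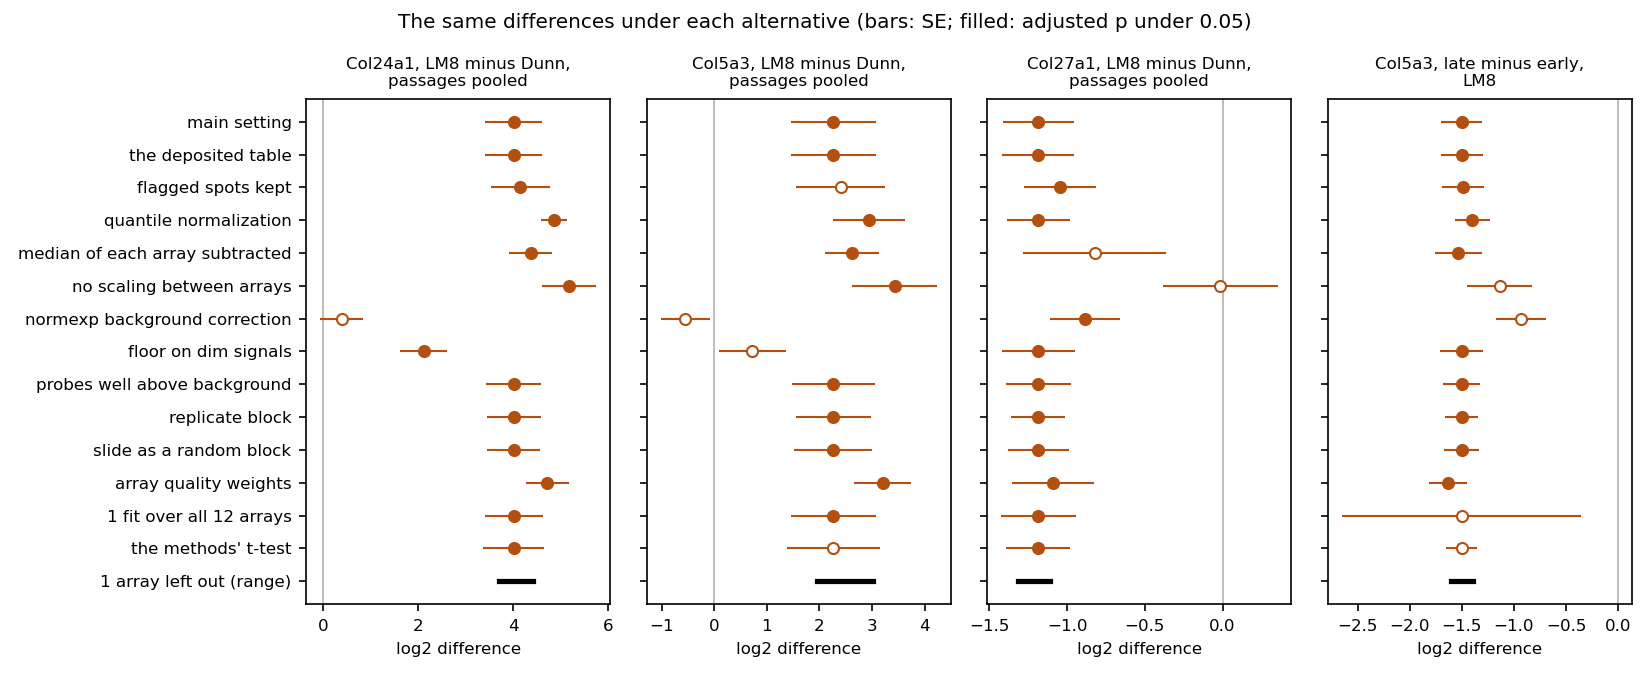
Log2 difference (x axes, of different range) for Col24a1, Col5a3 and Col27a1 between the lines and for Col5a3 between LM8 passages, under the main setting and each alternative (y axis). Bars are SE, filled points are called, and black bars span the values with 1 array left out. Normexp moves Col24a1 to 0.39 and Col5a3 to -0.55, and no scaling moves Col27a1 to -0.02.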

How the data were processed

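Total RNA of Dunn and LM8 cells was hybridised to Agilent mouse 4x44k v2 arrays. Per the submitters' processing notes, arrays were read with Agilent Feature Extraction 10.7.3. The authors deposited its files, where the processed signal is a background-subtracted intensity, and a table of the same intensities (100% of values within 1%), unscaled.

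Control spots and outlier spots were left out and spots of a probe averaged, leaving 39429 probes. The log2 processed signal minus each array's 75th percentile was used. Accessions matched 26581 probes (67.4%) to genes of GRCm38.p6, used for names only. Genes with several probes were given by the probe of highest mean level. Groups were compared with limma 3.58.1 (R 4.3.3) over the arrays compared, without a block as the study's methods name none. Chains were compared by exact permutation tests.

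Members and lists were chosen with earlier results of these data known. Named were the 10 genes, and up to 3 called genes per direction of the lists of other collagens and of procollagen processing and fibril assembly. Also named were some of the osteoblast, chondrocyte, macrophage, endothelial and muscle markers, and the genes most like Col1a1 and Col5a1. Epithelial markers were counted only, and the genes most like Col3a1 are not given. Alternatives were the scaling, background correction (normexp with an offset of 50, on median signals, since the files used here hold no mean signal), dim probes, blocks, weights, outlier spots and left-out arrays. Steps were tested on simulated data. The number of arrays limits the precision. Deviations from group means of same-numbered arrays correlated at 0.683, 0.641 and 0.222 between passages in Dunn and 0.281, -0.010 and 0.134 in LM8, and the number marks the slide. Between lines these were 0.206, -0.067 and 0.181 in early and 0.337, 0.325 and 0.047 in late cells. Plots were drawn with matplotlib 3.10.9.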

Additional observations from a re-analysis of the deposited data

How the results depend on the processing

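The number of the 10 genes called moved with the processing, while it was 0 under every alternative for Dunn passaging and for the difference of the passage changes. For LM8 passaging it was 1 in the main setting. It was 2 with quantile normalization (3.32% of all genes) or with probes well above background only (6.76%). Without scaling (1.61%), with normexp (1.49%), with 1 fit over all 12 arrays (1.44%) and with the methods' t-test (1.17%) it was 0. With that t-test 1 gene met the methods' own threshold. For LM8 against Dunn at early passage it was 2 in the main setting. It was 4 with a floor on dim signals and 5 with array quality weights, where 48.4% and 54.8% of all genes were called. It was 3 with the median subtracted (31.4% of all genes) and 1 with 1 fit (13.6%). With normexp (0.76%), with the replicate block (1.25%) and with the methods' t-test (3.59%) it was 0. With that t-test 3 met the methods' own threshold. At late passage it was 0 in the main setting. It was 2 with quantile normalization (8.62% of all genes) or probes well above background only (22.2%). It was 1 with the median subtracted (2.32%) or with 1 fit (8%), and 4 with weights (16.2%). With passages pooled it was 4 in the main setting and 5 without scaling (24.8% of all genes). It was 3 with normexp (64.3%), with probes well above background only (42.6%) or with the methods' t-test (38.7%). It was 2 with the median subtracted or with outlier spots kept (29.5% and 19.0% of all genes). Other alternatives left these counts as in the main setting, though not always the genes called. With passages pooled, Col27a1 and Col11a1 were not called without scaling, nor Col24a1 and Col5a3 with normexp. Col11a1 was not called with quantile normalization, nor Col5a3 with the floor on dim signals. Each of these pooled counts then held other members of the 10. Leaving out 1 array gave 0 to 1 calls in LM8 passaging (1.46% to 2.89% of all genes) and 0 to 4 at early passage (1.09% to 42.7%). It gave 0 to 3 at late passage (0.884% to 9.70%) and 2 to 3 with passages pooled (13.0% to 52.7%). The replicate block changed no call of a gene other than those of Col24a1 and Col5a3 at early passage.

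Normexp turned Col5a3 to -0.46 at early passage and to -0.55 with passages pooled, and no scaling turned Col27a1 to 0.35 at early passage. Among the chain shifts, normexp turned Col1a1 minus Col1a2 in Dunn passaging to -0.10, and Col5a2 minus Col5a1 to -0.34 in Dunn passaging and -0.084 between the lines. Without 1 array, Col5a2 minus Col5a1 in Dunn passaging ran from -0.44 to 1.49 and Col3a1 minus Col1a1 between the lines, which reads background, from -0.41 to 0.29. The causes were not tested. Of 47 differences with an unadjusted p of 0.05 or more, 33 changed direction under 1 or more alternatives and 7 were called under 1 or more. Signal over background limits Col3a1, Col11a1 and, in Dunn cells, Col24a1 and Col5a3.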
